A study of Mus musculus with 15 samples.

Results

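Collagens are the triple-helical proteins that give the arterial wall its tensile strength. Their chains are hydroxylated on proline and lysine and glycosylated in the endoplasmic reticulum, fold with the help of a chaperone, lose their propeptides outside the cell and are then cross-linked by lysyl oxidases. Fibrillar collagens form the banded fibrils of the media and adventitia, network collagens form sheets in basement membranes and in the space beneath the endothelium, and fibril-associated (FACIT) collagens coat the fibrils. The genes described here are the collagen chains with a probe set of 1 gene symbol, together with listed enzymes and the chaperone of these steps. A probe set was taken when it carried 1 gene symbol that was a collagen chain or 1 of 19 listed enzyme genes, and where a gene had more than 1 such probe set the brightest on average was kept. This gave 53 genes of the 12848 with 1 symbol, of which 38 encode collagen chains and 15 encode processing proteins. Of the 19 enzyme symbols 15 were found. Loxl2 and Plod3 lie only on probe sets with several symbols, and the prolyl 3-hydroxylase symbols Leprel1 and Leprel2 appear in the annotation under later names. No AngII effect entered the rule, although the collagen genes were chosen with earlier results of these data known. The mean signal decided which probe set stood for Col1a2, Col5a1 and Col6a1.

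RNA of the whole aorta, cleaned of fat and loose connective tissue, was measured on Affymetrix arrays with 1 array per mouse. The 8 AngII arrays come from mice of strain C57BL6 that received Angiotensin II, a pressor peptide, at 1 µg/kg/min from an implanted pump for 3 weeks, and the 7 vehicle arrays come from mice of that strain given physiological saline by pump. All animals were 2 months old, and the sources name no engineered allele. Values are log2 signals, so a difference of 1 is a doubling, and the fold change is AngII over vehicle. A gene is called higher or lower at an adjusted p under 0.05 in limma, with adjustment over all 15095 probe sets.

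Array medians lay between 7.16 and 7.28, and pairs of arrays correlated at r from 0.925 to 0.985. The arrays least like the rest were AngII 5, AngII 8 and vehicle 1. The smooth muscle genes that define the media were present, with Acta2 at a mean log2 signal of 13.84 in vehicle and 13.71 in AngII arrays, and so were genes of other cells, among them Ucp1 of brown fat at 10.53 and 11.13. The names in the sample descriptions form 2 series, called naming series here, which may or may not be batches. Series A holds vehicle 1 and 2 and AngII 1, 2 and 3, and series B holds the other 5 arrays of each group.

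Of the 53 collagen and processing genes 5 were higher in AngII arrays and 0 were lower. They were Col8a1, P4ha3, Col12a1, Col5a2 and Plod2, that is 3 chains of different classes and 2 hydroxylases. The 5 make up 9.43% of the genes, beside 5.33% of all probe sets called in either direction, 2.42% higher and 2.91% lower. Significance analysis of microarrays at Q = 0 called P4ha3 and Col8a1 higher and 0 of the 53 genes lower, beside 0.643% of all probe sets in either direction and 0.371% higher. In whole tissue, more cells of a type and more RNA per cell cannot be told apart. At an unadjusted p under 0.05 there were 22 genes with a higher and 1 with a lower signal, beside 9.29% and 12.6% of all probe sets. The fold change was positive for 46 genes (86.8%) and negative for 7, whereas it was positive for 47.4% of all probe sets. The median log2 fold change was 0.15 over the 53 genes and -0.01 over all probe sets. Every AngII array lay above every vehicle array for 2 genes (3.77%), P4ha3 and Col8a1, beside 0.550% of all probe sets. The plot of fold changes by class shows that each of the 3 called chains stood at the top of its class while most chains lay just above 0.

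**Figure D1:**
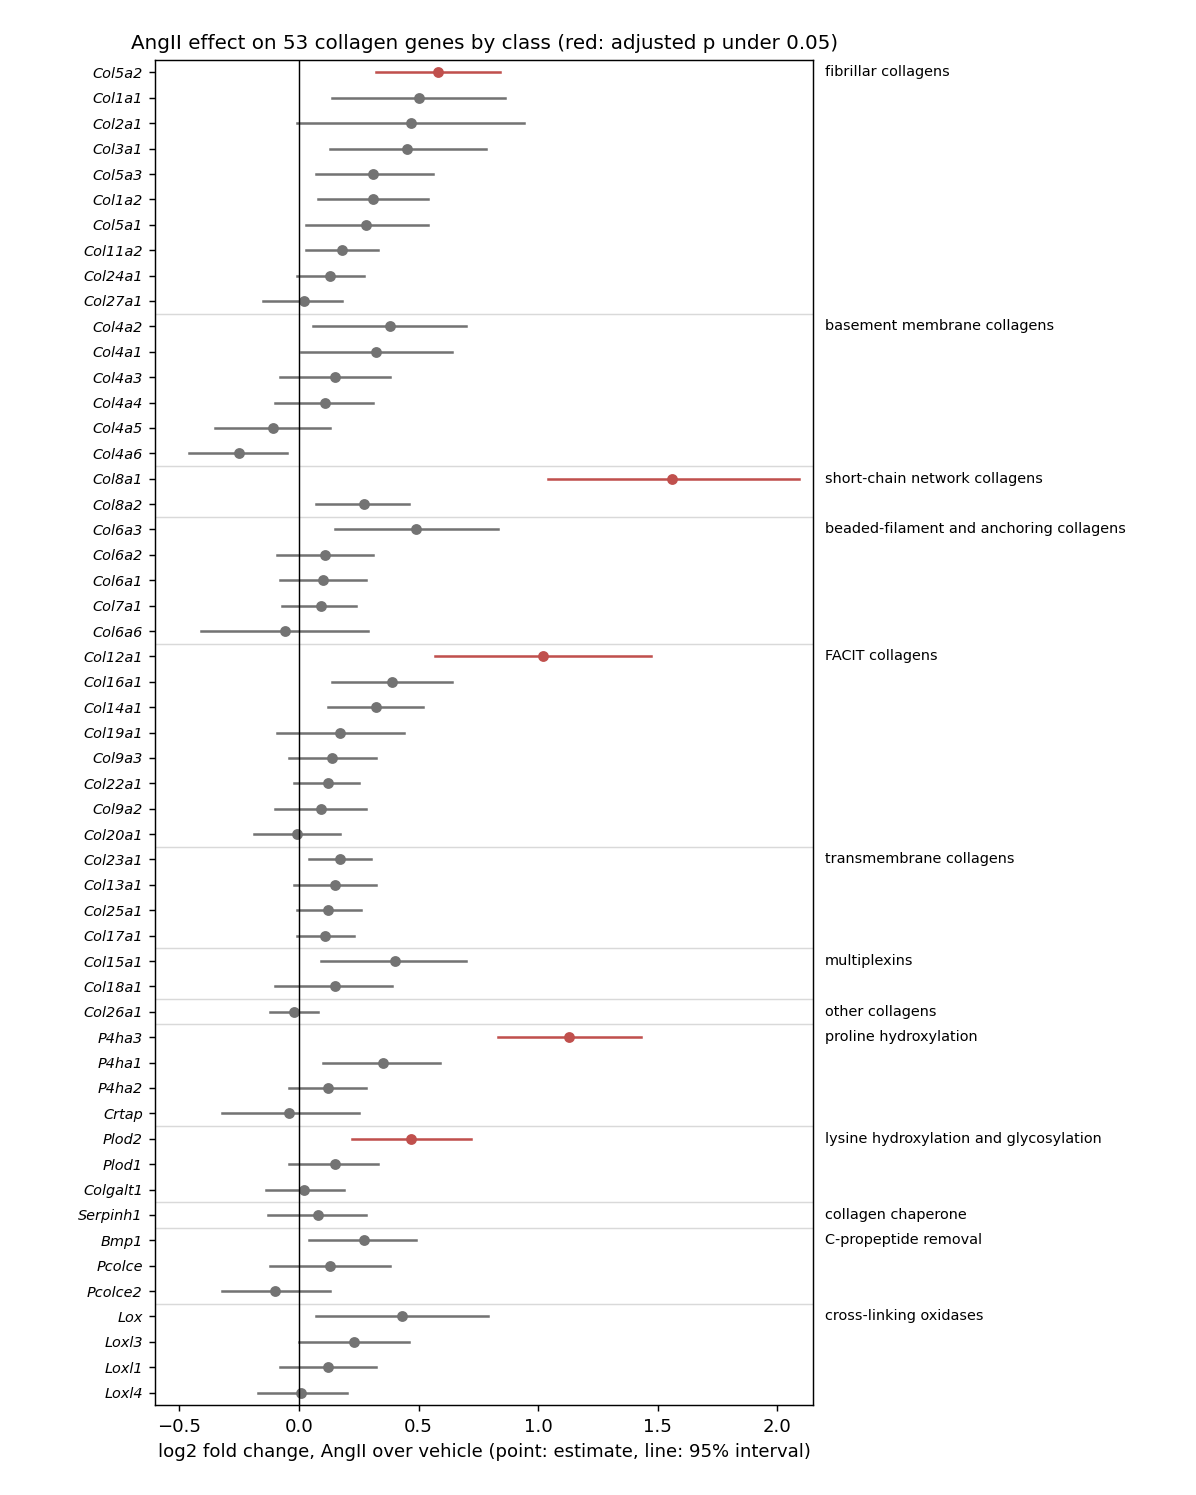
Log2 fold change of AngII over vehicle (horizontal axis) for the 53 genes, grouped by collagen class and processing step, with points for limma estimates, lines for 95% intervals and red for an adjusted p under 0.05. The 5 red genes are Col5a2 (0.58), Col8a1 (1.56), Col12a1 (1.02), P4ha3 (1.13) and Plod2 (0.47), and Col4a6 is at -0.25.

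Among the 10 fibrillar collagens, Col5a2 was the gene called higher, and all 10 fold changes were positive with a median of 0.31. Col24a1, Col11a2 and Col2a1 were dim, with mean signals at percentiles 0.768, 10.4 and 24.0 of the table. Col5a2 encodes a chain of type V collagen, which is built into type I fibrils and limits their width. Its probe set 17222719 gave log2 signals from 8.56 to 8.93 (median 8.70) in vehicle and from 8.69 to 9.75 (median 9.35) in AngII arrays. AngII 6 fell within the vehicle range, and the other 7 AngII arrays lay above it. The means were 8.72 ± 0.115 (SD, n = 7) and 9.30 ± 0.326 (SD, n = 8), so that Col5a2 was 1.5-fold higher (log2 fold change 0.58 ± 0.121 standard error, limma adjusted p = 0.0139). An exact two-sided permutation test over the arrays gave p = 0.0014.

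The chains of types I and III, the bulk of arterial fibrils, did not pass the adjusted threshold. Col1a1 ranged from 11.33 to 12.24 (median 11.62) in vehicle and from 11.54 to 12.65 (median 12.31) in AngII arrays, and its log2 fold change was 0.50 (95% interval 0.14 to 0.86, adjusted p = 0.0979). Col3a1, the chain of type III collagen, ranged from 11.17 to 12.01 in vehicle and from 11.33 to 12.29 in AngII arrays, with a log2 fold change of 0.45 (95% interval 0.13 to 0.78, adjusted p = 0.0944). The groups overlapped for both, with 4 of 8 AngII arrays above the highest vehicle array. Col1a2, the partner chain of Col1a1, gave 0.31 (adjusted p = 0.104) on its brightest probe set and 0.62 (adjusted p = 0.0276) on the other, so its call depends on the probe set. Col5a1, the main partner chain of Col5a2, gave 0.28 (adjusted p = 0.181). The 9 fibrillar genes without a call ranged from 0.02 to 0.50. Col2a1, the collagen of cartilage, stood out by 2 arrays, since AngII 5 (7.38) and AngII 8 (7.63) lay far above the other AngII arrays (5.91 to 6.38), and its log2 fold change was 0.47 (adjusted p = 0.235). It was singled out after its values were seen.

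Col8a1 had the highest fold change of the 53 genes. It encodes a chain of type VIII collagen, a short-chain collagen that forms hexagonal networks and is made by vascular smooth muscle and endothelial cells. The log2 signal of probe set 17331162 ran from 7.03 to 7.69 (median 7.39) in vehicle and from 7.73 to 10.08 (median 8.82) in AngII arrays. The groups did not overlap, although AngII 6 exceeded the highest vehicle array by little. The means were 7.36 ± 0.247 (SD, n = 7) and 8.93 ± 0.690 (SD, n = 8), so that Col8a1 was 2.95-fold higher (log2 fold change 1.56, standard error 0.248, adjusted p = 0.00400 from limma). The exact permutation test gave p = 0.000311. Col8a2, the partner chain, ranged from 5.74 to 6.00 in vehicle and from 5.89 to 6.66 in AngII arrays, with a log2 fold change of 0.27 (adjusted p = 0.110).

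Promoter windows from 250 bases before to 50 bases after the start were found in RefSeq (GRCm38.p6) for 39 of the 53 genes, and among the 5 called genes for P4ha3 and Col8a1. They are shown because these are the pair of genes whose AngII and vehicle arrays did not overlap. Capitals mark GC boxes, the letters GGGCGG or, on the other strand, CCGCCC, which may overlap each other. P4ha3 lies at chr7:100285270-100285569 on the plus strand, and Col8a1 at chr16:57754688-57754987 on the minus strand.
P4ha3: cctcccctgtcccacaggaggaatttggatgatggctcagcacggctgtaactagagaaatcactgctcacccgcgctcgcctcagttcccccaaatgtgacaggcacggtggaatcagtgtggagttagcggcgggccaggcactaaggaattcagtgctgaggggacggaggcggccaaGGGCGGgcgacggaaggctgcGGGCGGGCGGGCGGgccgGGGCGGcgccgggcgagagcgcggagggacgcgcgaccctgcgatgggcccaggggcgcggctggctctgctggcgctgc
Col8a1: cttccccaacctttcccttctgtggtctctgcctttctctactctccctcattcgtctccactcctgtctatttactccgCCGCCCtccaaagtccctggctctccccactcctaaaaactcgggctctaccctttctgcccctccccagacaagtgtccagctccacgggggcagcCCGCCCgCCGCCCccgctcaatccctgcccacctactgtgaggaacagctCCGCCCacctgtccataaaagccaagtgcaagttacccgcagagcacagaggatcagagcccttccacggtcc
The P4ha3 window held 5 GC boxes at 69.3% G and C, and the Col8a1 window held 4 at 60.3%, placed as GGGCGG in the former and as CCGCCC in the latter. The Col8a1 window also held 1 SMAD box (CAGAC or its reverse complement), and the P4ha3 window none. A GC box was present in 73.8% of the 42 promoter windows of these genes, in 60.8% of those of measured genes and in 35.7% of all promoter windows in the table. A match is a description of the letters and no evidence of binding.

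Col12a1 was called higher among the 8 FACIT collagens, whose median log2 fold change was 0.16. Type XII collagen binds to the surface of type I fibrils. Probe set 17529099 gave from 6.81 to 7.38 (median 7.14) in vehicle and from 7.16 to 8.93 (median 8.15) in AngII arrays. Again AngII 6 lay inside the vehicle range and the other 7 lay above it. With means of 7.12 ± 0.225 (SD, n = 7) and 8.14 ± 0.585 (SD, n = 8), Col12a1 was 2.02-fold higher (log2 fold change 1.02, standard error 0.213, adjusted p = 0.0139 from limma). The exact permutation test gave p = 0.00155. Col14a1, which encodes the closely related type XIV collagen, gave 0.32 (adjusted p = 0.0599), with 5 of 8 AngII arrays above the highest vehicle array. Col16a1, the uncalled FACIT chain with the largest fold change, gave 0.39 (adjusted p = 0.0659). The other 5 lay between -0.01 and 0.17. Among them Col9a3, Col22a1 and Col19a1 were dim, with mean signals at percentiles 1.34, 5.37 and 20.7 of the table.

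**Figure D2:**
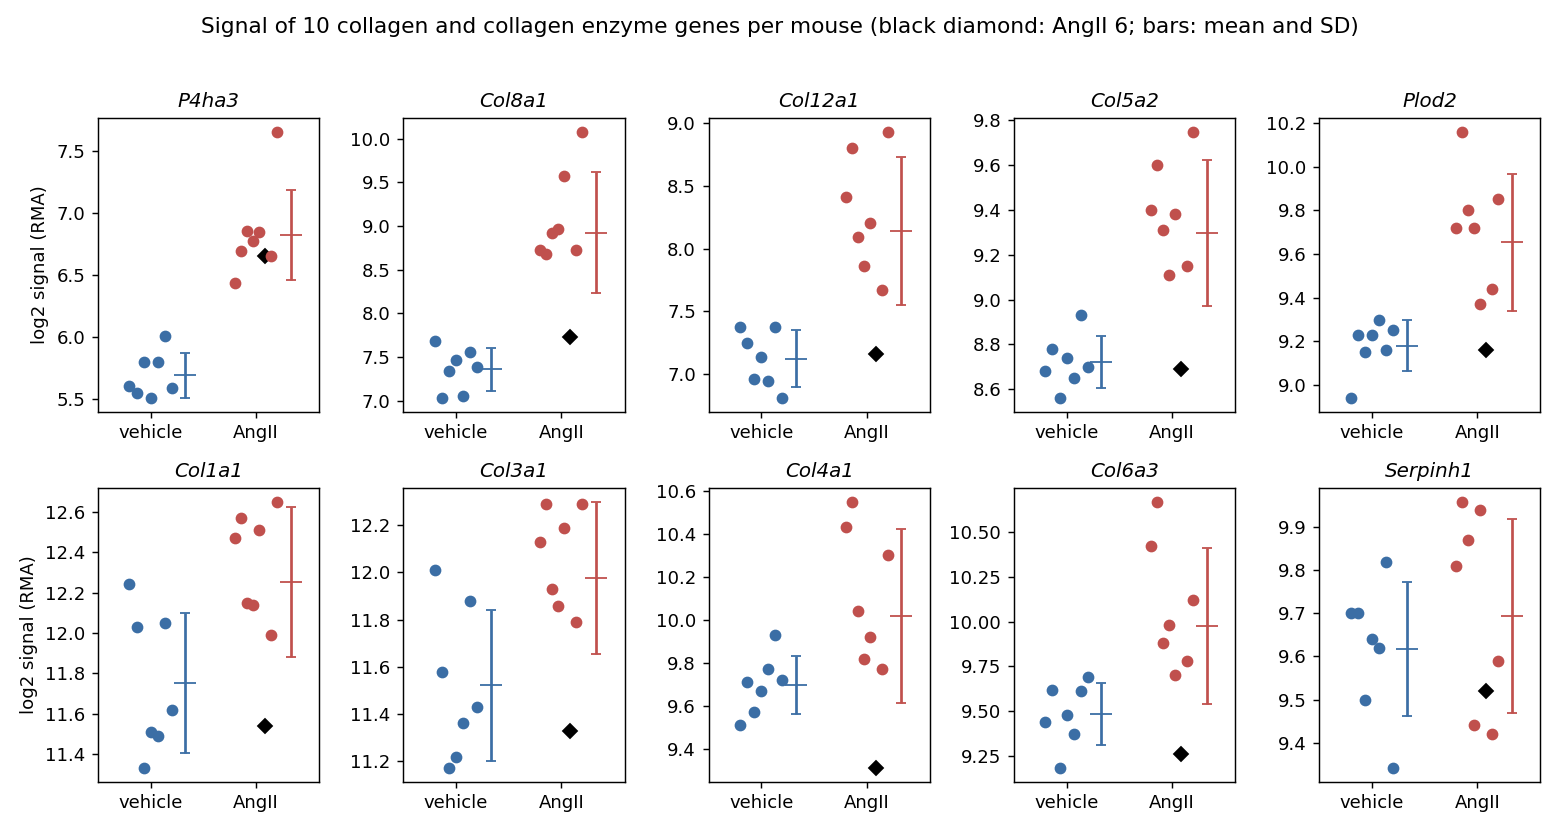
Log2 signal (vertical axis, a separate range in each panel) of 10 genes in 7 vehicle and 8 AngII arrays, with 1 point per mouse, AngII 6 as a black diamond and bars for mean and SD. In the AngII group AngII 6 is the lowest array for Col8a1 (7.73), Col12a1 (7.16), Col5a2 (8.69) and Col1a1 (11.54), while its P4ha3 signal (6.66) lies among those of the other AngII arrays.

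None of the 6 type IV chains of basement membranes was called, and the class median was 0.13. Col4a1 and Col4a2 encode the chains of the type IV network found around smooth muscle and under endothelium. Col4a1 ranged from 9.51 to 9.93 in vehicle and from 9.31 to 10.55 in AngII arrays (log2 fold change 0.32, adjusted p = 0.216). Col4a2 ranged from 9.0 to 9.29 in vehicle and from 8.73 to 10.03 in AngII arrays (0.38, adjusted p = 0.15). For Col4a2 all AngII arrays but AngII 6 lay above the highest vehicle array, and AngII 6 lay below the lowest. Col4a3 and Col4a4, chains best known from the kidney glomerulus, gave 0.15 and 0.11. Col4a6 gave -0.25 (95% interval -0.46 to -0.05, adjusted p = 0.136) with 0 of 8 AngII arrays above the vehicle mean, and its neighbour Col4a5 gave -0.11 (adjusted p = 0.609). These 4 chains were named after their values were seen.

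Type IV chain genes are neighbours in the genome, and 5 pairs of the 53 genes are adjacent in the RefSeq table. They are Col4a1 with Col4a2, Col4a3 with Col4a4, Col4a5 with Col4a6, Col6a1 with Col6a2, and Col3a1 with Col5a2. Col4a1 and Col4a2 are transcribed in opposite directions from 1 shared promoter, and their windows overlap over 78 bases at chr8:11312777-11312854, given here on the plus strand with the GC box in capitals because the AngII effects of this pair are compared within arrays.
Col4a1 and Col4a2: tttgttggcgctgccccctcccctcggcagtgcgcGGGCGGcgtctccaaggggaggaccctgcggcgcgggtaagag
The overlap held 1 GC box.

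Of the 5 chains of beaded filaments and anchoring fibrils none was called (median 0.10). Col6a3, a chain of the type VI microfibrils around cells, ranged from 9.18 to 9.69 (median 9.48) in vehicle and from 9.26 to 10.67 (median 9.93) in AngII arrays. AngII 6 was inside the vehicle range and the other 7 were above it, and the log2 fold change was 0.49 (95% interval 0.15 to 0.83, adjusted p = 0.0900). Its partner chains Col6a1 and Col6a2 gave 0.10 and 0.11 (adjusted p = 0.541 and 0.535). The multiplexin Col15a1, of vascular basement membrane zones, gave 0.40 (adjusted p = 0.115), again with 7 AngII arrays above the vehicle range and AngII 6 below it (8.45 beside a lowest vehicle value of 8.71). Col18a1, which contains endostatin, gave 0.15 (adjusted p = 0.487). The 4 transmembrane collagens lay between 0.11 and 0.17, with Col23a1 highest, and Col26a1 gave -0.02. Over the 53 genes, 40 had a mean log2 signal above the lower quartile of the table (6.33) and 13 had one below it.

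Of the processing genes, P4ha3 and Plod2 were called higher and 13 were not. P4ha3 encodes a catalytic alpha subunit of prolyl 4-hydroxylase, whose product, hydroxyproline, stabilizes the triple helix. Probe set 17480675 gave from 5.51 to 6.01 (median 5.61) in vehicle and from 6.44 to 7.66 (median 6.74) in AngII arrays, without overlap, and AngII 8 was the highest. The means were 5.70 ± 0.180 (SD, n = 7) and 6.83 ± 0.364 (SD, n = 8), a log2 fold change of 1.13 in signal (standard error 0.140, limma adjusted p = 0.00111). The exact permutation test gave p = 0.000155, which is the lowest value possible with these group sizes. The vehicle signal is near the lower end of the table, with 6.35% of probe sets at a lower vehicle mean. Its distance from background was not measured, so 2.19-fold is a ratio of signals, not of transcript levels. The main alpha subunits P4ha1 and P4ha2 gave 0.35 (adjusted p = 0.0895) and 0.12 (adjusted p = 0.360), and Crtap, which takes part in prolyl 3-hydroxylation, gave -0.04 (adjusted p = 0.904).

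Plod2 encodes the lysyl hydroxylase of the telopeptides, the chain ends where stable cross-links form. Probe set 17520364 gave from 8.94 to 9.30 (median 9.23) in vehicle and from 9.16 to 10.16 (median 9.72) in AngII arrays. AngII 6 lay inside the vehicle range and the other 7 above it. The means were 9.18 ± 0.118 (SD, n = 7) and 9.65 ± 0.314 (SD, n = 8), so that Plod2 was 1.39-fold higher (log2 fold change 0.47, standard error 0.118, adjusted p = 0.0300 from limma). The exact permutation test gave p = 0.00311. The call of Plod2 was the least stable of the 5, since it ended on leaving out any of vehicle 2, 3, 4, 5 and 7 and of AngII 1, 3, 4 and 8 (adjusted p up to 0.0587), although its log2 fold change in those fits stayed between 0.44 and 0.49. Plod1, which hydroxylates lysines of the helix, gave 0.15 (adjusted p = 0.338), and the collagen galactosyltransferase Colgalt1 gave 0.02 (adjusted p = 0.898).

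The collagen chaperone Serpinh1 (Hsp47) ranged from 9.34 to 9.82 in vehicle and from 9.42 to 9.96 in AngII arrays, with a log2 fold change of 0.08 (95% interval -0.13 to 0.28, adjusted p = 0.685). Bmp1, the protease that cuts off the C-propeptide, gave 0.27 (adjusted p = 0.151), and its enhancers Pcolce and Pcolce2 gave 0.13 and -0.10 (adjusted p = 0.540 and 0.632). Among the 4 cross-linking oxidases Lox had the largest value, from 9.79 to 10.74 in vehicle and from 10.36 to 11.41 in AngII arrays (log2 fold change 0.43, 95% interval 0.07 to 0.79, adjusted p = 0.149). Loxl1, the oxidase known for elastic fibres, gave 0.12 (adjusted p = 0.479), Loxl3 gave 0.23 (adjusted p = 0.229) and Loxl4 gave 0.01 (adjusted p = 0.942). None of these was called.

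Whether partner chains, chains of other types or related enzymes changed by unequal amounts was tested within arrays for 14 pairs. The measure was the difference of their log2 signals in AngII less that in vehicle arrays, by exact permutation tests with adjustment over the 14. The pairs were chosen with earlier results of these data known, and the adjustment does not cover that choice. At an adjusted p under 0.05 effects differed in 4 pairs. Col8a1 exceeded Col8a2 by 1.30 (95% interval 0.79 to 1.80, adjusted p = 0.00218) and Col1a1 by 1.06 (0.60 to 1.52, adjusted p = 0.00218), and in both pairs the 8 AngII differences lay above the vehicle range. Col12a1 exceeded Col14a1 by 0.70 (0.35 to 1.04, adjusted p = 0.00653). Col5a1 lay below Col5a2, with a difference of -0.30 (-0.48 to -0.12, adjusted p = 0.0141). Col8a2 was dim, with its mean signal at percentile 16.6 of the table, and its distance from background was not measured. Probe sets can compress changes to different degrees, so these differences are those of the signals.

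The 3 pairs with estimates nearest to 0 had narrow intervals. The difference was -0.01 for Col6a1 less Col6a2 (95% interval -0.11 to 0.09), -0.06 for Col4a1 less Col4a2 (-0.19 to 0.08) and -0.05 for Col3a1 less Col1a1 (-0.15 to 0.05), with adjusted p of 0.780, 0.391 and 0.364. Col1a1 less Col1a2 gave 0.19 (0.02 to 0.36) and Lox less Loxl1 gave 0.31 (0.01 to 0.61). Plod1 less Plod2 gave -0.32 (-0.64 to -0.01), and P4ha1 less P4ha2 gave 0.22 (0.01 to 0.44). These last 4 pairs shared an adjusted p of 0.0725. Col1a2 stood in its pair on the brightest probe set (0.31). The other Col1a2 probe set gave 0.62, beside 0.50 for Col1a1, so the sign of that difference depends on the probe set. Col15a1 less Col18a1 gave 0.25 (adjusted p = 0.0518), Pcolce less Pcolce2 gave 0.23 (adjusted p = 0.0925), and Col4a1 less Col1a1 gave -0.18 (-0.50 to 0.14, adjusted p = 0.309). The number of pairs that differed became 10 without vehicle 1 and 8 without AngII 4 or without AngII 6.

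**Figure D3:**
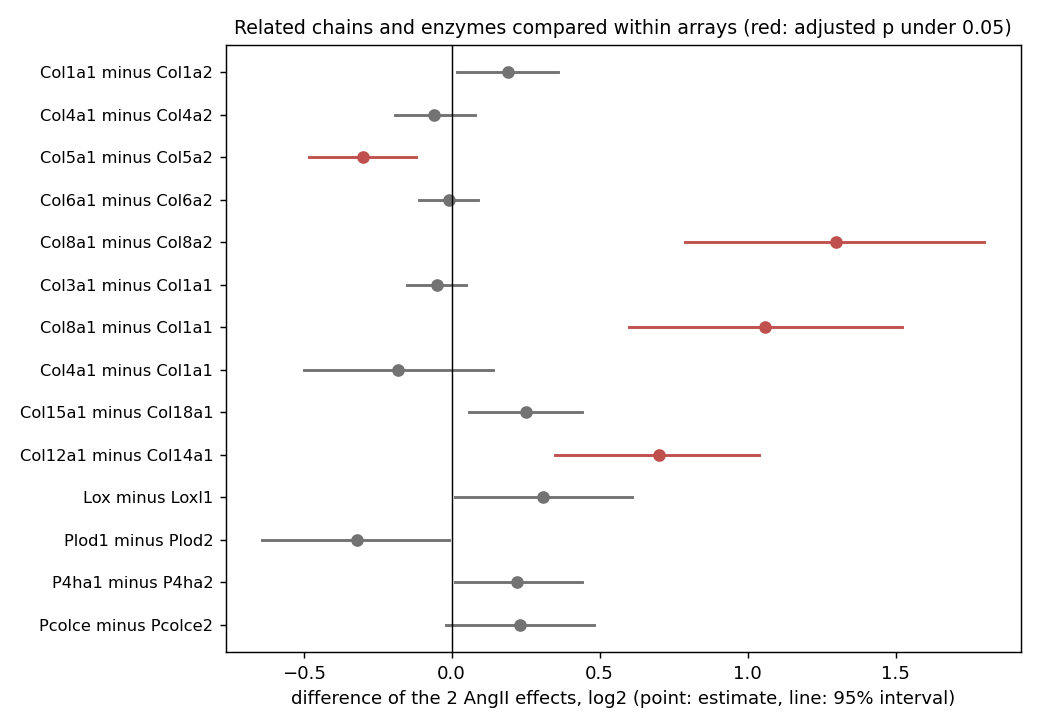
Difference between the AngII effects of 2 genes measured on the same arrays (horizontal axis, log2), for 14 pairs, with points for estimates, lines for 95% intervals and red for an adjusted p under 0.05 by exact permutation. Col8a1 minus Col8a2 (1.30) lies farthest from 0, and Col6a1 minus Col6a2 (-0.01) and Col4a1 minus Col4a2 (-0.06) lie closest with Col3a1 minus Col1a1 (-0.05).

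The AngII arrays were unequal in their collagen signals. The median deviation of the 53 genes from their vehicle means was 0.44 in AngII 2, 0.29 in AngII 1, 0.21 in AngII 5, 0.20 in AngII 8, 0.17 in AngII 4, 0.13 in AngII 3, 0.06 in AngII 7 and -0.02 in AngII 6, while the vehicle arrays lay between -0.14 and 0.14. AngII 2 held the highest AngII value for 29 of the 53 genes, beside 13.9% of all probe sets, and 41 genes lay above the vehicle range in it, beside 13.4% of all probe sets. AngII 6 held the lowest AngII value for 25 of the 53 genes, beside 13.6% of all probe sets. In AngII 6, 35 genes lay within the vehicle range, 10 below and 8 above it, beside 10.4% of all probe sets below and 15% above, so the 8 above are close to the share over all probe sets. Among those above were P4ha3 and Col8a1, and also Col4a3 (7.62 beside a highest vehicle value of 7.28) and Col4a4 (7.26 beside 7.05).

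AngII 6 carries the AngII label like the others, and its marker means were extreme for some lists and not for others. It had the highest mean of all arrays for the 7 fibroblast markers (9.19, beside 9.17 in AngII 5). The same held for the 6 endothelial markers (9.58, beside 9.45 in vehicle 3). Its mean was the lowest of the AngII arrays for the 10 adipocyte markers (7.92) and the 3 cartilage markers (6.29). Its smooth muscle mean (11.65) lay inside the AngII range of 11.16 to 11.88. Other arrays were extreme for other lists, such as AngII 2 for endothelial (8.03) and AngII 8 for skeletal muscle markers (7.63). The part of cell makeup in the collagen signals of AngII 6 was not tested. The mean log2 signal of 10 fibril-binding matrix genes was 10.85 in AngII 6. It lay above all vehicle arrays (10.39 to 10.64) and was the lowest of the AngII arrays (10.85 to 11.27). For 7 genes of collagen breakdown and its inhibition AngII 6 was also the lowest AngII array (9.21, beside a highest vehicle value of 9.19). Its mean of 8 macrophage markers was 8.45, above the vehicle range of 7.48 to 8.23 and inside the AngII range of 8.17 to 9.19. With each of the 15 arrays left out in turn, the number of genes called higher was between 4 and 15, and the 15 came without AngII 6 (28.3% of the 53 genes, with 3.37% of all probe sets called higher in that fit). AngII 6 held the lowest AngII value for 25 of the 53 genes, so leaving it out raises their fold changes by construction. It was singled out on these same values, and the additional calls are no separate evidence. The 15 called genes held all 5 genes called with every array. The 10 additional ones were Col1a1 (log2 fold change 0.60, adjusted p = 0.0224), Col3a1 (0.55, adjusted p = 0.0201), Col4a1 (0.42, adjusted p = 0.0404), Col4a2 (0.49, adjusted p = 0.0146), Col1a2 (0.37), Col5a3 (0.37), Col6a3 (0.59), Col14a1 (0.35), Col15a1 (0.51) and Col16a1 (0.46). Without vehicle 1 there were 9 genes called higher, with 3.21% of all probe sets. The heat map of all arrays shows the AngII 6 column at the colour of the vehicle columns for most fibrillar chains.

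**Figure D4:**
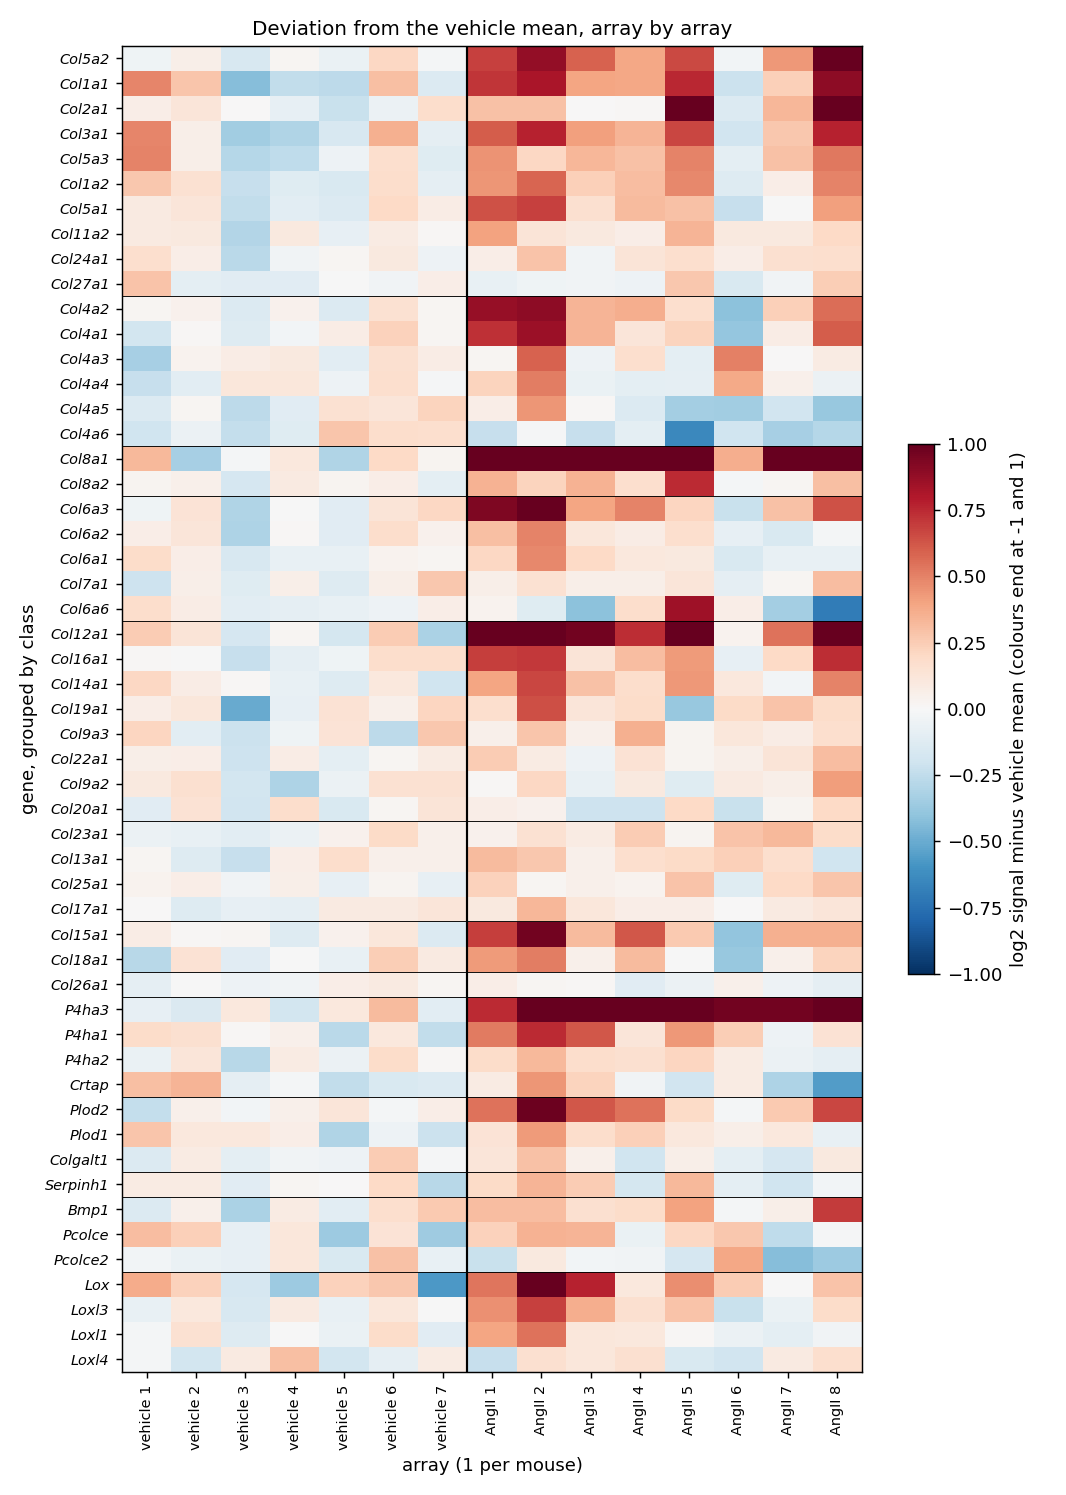
Log2 signal less the vehicle mean of the gene (colour, from -1 in blue to 1 in red, with larger values shown at the end of the scale) for 53 genes in rows, grouped by class, and 15 arrays in columns. The rows of Col8a1, Col12a1 and P4ha3 are red in the AngII columns, except Col12a1 in AngII 6 (0.04 above the vehicle mean). AngII 2 is the reddest column (median 0.44), and AngII 6 (median -0.02) is red in the P4ha3 row.

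Within the 2 naming series the direction of the called genes was the same. In series A alone and in series B alone the log2 fold changes were 1.09 and 1.18 for P4ha3, 1.42 and 1.65 for Col8a1, 1.12 and 0.92 for Col12a1, 0.71 and 0.50 for Col5a2, and 0.80 and 0.29 for Plod2. Fold changes were positive for 45 of the 53 genes in series A and for 44 in series B. After adjustment over all probe sets, P4ha3 (0.0253) and Col8a1 (0.0385) passed in series B, and none of the 53 genes passed in series A, where 7 probe sets of the whole table were called higher. A test of the difference between the series gave an unadjusted p under 0.05 for 5 of the 53 genes, beside 6.39% of all probe sets, among them Plod2, Col4a1 (0.73 in A, 0.09 in B) and Col4a5 (0.23 in A, -0.31 in B). The smallest adjusted p of the 53 was 0.729 in limma, and 0 of all probe sets (0.00%) passed. With the series as a block, 7 genes were called higher, the 5 together with Col14a1 and P4ha1, while the share of all probe sets called higher was 3.15%. The series themselves differed at an adjusted p under 0.05 for Crtap (0.0124), P4ha1 (0.0339) and Col6a1 (0.0486), beside 3.05% of all probe sets.

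Genes that act with collagens outside these families were described from 4 lists, whose counts stand beside the 2.42% of all probe sets called higher and the 2.91% called lower. The lists were chosen with earlier results of these data known, so their counts are descriptions and no independent test. Helpers of collagen synthesis and export (11 genes) held 0 called genes and had a median log2 fold change of 0.06. Among them P4hb, the beta subunit that completes prolyl 4-hydroxylase, gave 0.09, the prolyl isomerase Ppib 0.14, and the collagen-binding glycoprotein Sparc 0.16. Of 8 collagen receptors 2 were higher and 0 lower, and the median was 0.05. The higher ones were the fibroblast integrin subunit Itga11 (0.63, adjusted p = 0.0247) and Lair1, the inhibitory collagen receptor of leukocytes (0.50, adjusted p = 0.00791). The fold change was negative for 3 of the 8, with Itga1 at -0.28 (adjusted p = 0.132) and Ddr2 at -0.20 (adjusted p = 0.138). Of 7 genes of collagen breakdown and its inhibition 3 were higher and 0 lower. These were the protease inhibitor Timp1 (1.2, adjusted p = 0.00368), the collagenolytic cathepsin Ctsk (0.81, adjusted p = 0.00414) and the gelatinase Mmp2 (0.63, adjusted p = 0.0273). In naming series A and B alone the log2 fold changes were 0.20 and 0.80 for Itga11, and 0.17 and 0.84 for Mmp2. The limma test of the difference between the series gave unadjusted p of 0.0332 and 0.0398, and an adjusted p of 0.729 for both.

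Fibril-binding matrix proteins held the most calls of the 4 lists, with 6 of 10 genes higher, 1 lower and a median of 0.52, beside 2.42% and 2.91% of all probe sets. This list too was chosen with earlier results known, so the count is no independent evidence. The higher genes were the thrombospondins Thbs1 (1.77, adjusted p = 0.00111) and Comp (1.24, adjusted p = 0.00330), the small leucine-rich proteoglycans Lum (1.02, adjusted p = 0.00164) and Aspn (0.57, adjusted p = 0.0342), dermatopontin Dpt (0.54, adjusted p = 0.0123) and fibronectin Fn1 (0.51, adjusted p = 0.0214). Tnxb, a tenascin that binds fibrils, was lower (-0.47, adjusted p = 0.00435), with every AngII array below every vehicle array. Over all probe sets 0.543% showed such a separation downwards.

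Markers of other cells moved with the groups to different extents. Their counts of called genes stand beside 2.42% of all probe sets called higher and 2.91% called lower. The 8 macrophage markers had a mean log2 signal of 7.86 ± 0.25 (SD, n = 7; range 7.48 to 8.23) in vehicle and 8.53 ± 0.349 (SD, n = 8; range 8.17 to 9.19) in AngII arrays (exact permutation test, p = 0.000777), and 5 of them (Mpeg1, Lyz2, Cd68, C1qa and Cd14) were called higher. The 7 fibroblast markers had means of 8.82 and 8.99 (exact permutation test, p = 0.0482), with Thy1 called higher (0.58). The 8 smooth muscle markers had means of 11.78 and 11.58 (exact permutation test, p = 0.0637), with 0 called. The 3 cartilage markers had means of 6.46 and 6.81 (exact permutation test, p = 0.00824), with Acan called higher (0.89), while Sox9 gave 0.20 (adjusted p = 0.120) and Hapln1 -0.03 (adjusted p = 0.938). The 10 adipocyte markers had means of 8.78 and 9.27 (exact permutation test, p = 0.305) and spread widely over the vehicle arrays, from 7.42 to 10.19. Endothelial, skeletal muscle and Schwann cell lists gave exact p of 0.969, 0.294 and 0.103.

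The fold changes of the 5 genes were refitted with marker means as covariates, of which all but the adipocyte mean were chosen after the data were seen. With the fibroblast mean or the adipocyte mean the number of genes called higher was 5, with 1.06% and 1.91% of all probe sets called higher. With the smooth muscle mean 3 were called, Col8a1 (1.21), P4ha3 (0.98) and Plod2 (0.60), with 0.682% of all probe sets. With the macrophage mean 0 were called, and only 1 of all 15095 probe sets was called in that fit. The log2 fold changes were then 0.73 for P4ha3 (adjusted p = 0.243), 0.78 for Col8a1 (adjusted p = 0.531), 0.60 for Col12a1 (adjusted p = 0.726), 0.37 for Col5a2 (adjusted p = 0.704) and 0.60 for Plod2 (adjusted p = 0.377). The macrophage mean differed between the groups, so in that fit it and AngII cannot be told apart in full. Without the 3 least correlated arrays the called genes were P4ha3 (0.97), Col8a1 (1.32) and Col12a1 (0.92), with 1.75% of all probe sets called higher.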

How the data were processed

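RNA from 7 vehicle and 8 AngII aortae was hybridized to Affymetrix arrays, 1 per mouse. The authors background-corrected, normalized and summarized the probe sets by robust multiarray analysis in Expression Console v1.1.2, and deposited log2 values. The genome build is not given in the sources used here. The labels name Trizol with RNeasy for extraction and the methods another kit. Nothing was filtered or renormalized for the main comparison.

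Probe sets were named from the platform annotation, in which 13403 of 15095 carry 1 symbol. AngII was compared with vehicle in limma 3.58.1 (R 4.3.3; lmFit, eBayes, Benjamini-Hochberg adjustment over all probe sets, threshold 0.05, 95% intervals). Single genes and within-array differences were tested by exact two-sided permutation over 6435 assignments. The script was tested on simulated data. The number of arrays limits the precision.

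Named were all called genes, all genes of the 14 pairs, the uncalled gene with the largest fold change of a class, and called genes of the partner lists, and others were named after their values were seen. The collagen genes, pairs and lists were chosen with earlier results of these data known. Alternatives were each array left out, the naming series, replicate numbers as a block, further normalization, a filter on the lower 25% of mean signals, an intensity trend, array weights, marker means as covariates, the mean of a gene's probe sets, and significance analysis of microarrays with 100 permutations at Q = 0. The study names that method, but it was run here in an implementation written for this work, so its calls are not those of the study.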

Additional observations from a re-analysis of the deposited data

Results flagged for a closer look

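Each of the 53 genes was examined in each group for a single array far from the others, which made 106 groups of arrays, of which chance would mark about 1 in 20 and 4 were marked. P4ha3 in AngII 8 was 7.66 with the next array at 6.86. Plod2 in vehicle 1 was 8.94 with the next array at 9.15. Col17a1, a transmembrane collagen of epithelia, was 5.89 in AngII 2 with the next array at 5.68, and Col19a1, a FACIT collagen, was 5.59 in vehicle 3 with the next array at 6.01. Both Col17a1 and Col19a1 were dim, with mean signals at percentiles 3.38 and 20.7 of the table.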

How the results depend on the processing

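The number of the 53 genes called higher was 5, with 2.42% of all probe sets called higher, and this share moved with the setting. The number was 0 in naming series A (0.0464% of all probe sets), 2 in series B (1.37%), 3 with the replicate block (0.729%), 10 with array weights (3.69%), 3 without the 3 least correlated arrays (1.75%), 3 and 0 with the smooth muscle (0.682%) and macrophage (0.00662%) means as covariates, 2 (P4ha3 and Col8a1) by significance analysis of microarrays (0.371%), and from 4 to 15 with 1 array left out (1.13% to 3.37%). None of the genes was lower in any of these. The replicate block used the shared numbers 1 to 7, whose deviations correlated at 0.182 to 0.416 in 4 pairs and at -0.456 to -0.0957 in 3. No label says that a number marks a shared litter or day, so the numbers were not taken as pairs. The block kept Col12a1 (0.90), Col8a1 (1.4) and P4ha3 (1.01) and ended the calls of Col5a2 (0.52, adjusted p = 0.0765) and Plod2 (0.44, adjusted p = 0.108). The partner lists held 11 higher genes, and 7 to 12 with 1 array left out, 1 in series A, 6 with the replicate block, 7 and 7 with the fibroblast and smooth muscle means, 0 with the macrophage mean and 6 by significance analysis. The 1 lower gene became 0 in series A and with the macrophage mean. Pairs that differed numbered 4, and 4 to 10 with 1 array left out. No called gene changed direction. P4ha3 fell under the filter on dim probe sets. The causes of these changes were not tested.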

Other observations

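The prolyl 3-hydroxylases listed under older symbols were measured under their present names and not counted among the 53. P3h2 (Leprel1) had an AngII effect of 0.06 on the log2 scale (limma adjusted p = 0.910) and P3h3 (Leprel2) one of 0.15 (limma adjusted p = 0.189). The dimmer probe sets of Col5a1 and Col6a1 gave 0.05 (adjusted p = 0.733) and 0.12 (adjusted p = 0.503), beside 0.28 and 0.10 on the brighter ones. In the promoter windows of the collagen and processing genes, searched on both strands, motif shares are given beside those of measured genes and of all windows in the table. TATAAA occurred in 16.7% (measured genes 7.58%, all windows 13.6%), CCAAT in 23.8% (36.5%, 37.4%), TGANTCA in 2.38% (5.25%, 7.81%), GTGGGAA in 4.76% (5.96%, 6.38%), GGAATG in 11.9% (12.4%, 14.7%) and CAGAC in 52.4% (47.7%, 49.6%).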
